A study of Mus musculus with 33 samples.

Results

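Heat shock proteins and their co-chaperones were followed in mouse liver after 2 weeks of fenofibrate or fish oil. The members were 10 genes chosen by symbol: Hspd1, Hspe1 and Hspa9, whose products work in mitochondria, and Hspb1, Hsp90aa1, Hsp90ab1, Hspa8, Hsph1, Dnajb1 and Dnaja1, whose products work mainly in the cytosol and nucleus. A probe set, a group of short probes for a transcript, belonged to a member if the platform annotation gave it that symbol alone. This gave 26 of the 45101 probe sets on the array, for 9 genes; Hsp90ab1 was not analysed here. Of the 26 probe sets, 23 were bright enough to be tested, with at least 1 for each of the 9 genes, and the brightest of a gene stood for it among the 9005 genes tested.

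The livers came from 33 male C57BL/6J mice aged 17 weeks, with 1 Affymetrix array per mouse. Fenofibrate, a drug that activates the nuclear receptor PPARα, was given to 12 mice at 0.03% of diet weight, in the same sunflower oil diet that the controls ate. The fish oil of 11 mice (23.1% EPA and 21.1% DHA) replaced sunflower oil at an equal 7% of energy. The 10 control mice ate the sunflower oil diet, in which oleic acid made up 81.3% of the oil; all mice were without food from 7 h until 13 h in the day, and the series sets the drug beside the oil.

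Chaperones bind unfolded or newly made proteins and keep them from aggregating until they reach their shape. Hsp70 proteins do this in cycles of ATP hydrolysis that J-domain proteins start and nucleotide exchange factors end, and pass some clients to Hsp90 or, in mitochondria, to the barrel-shaped chaperonin. After heat or protein damage the transcription factor HSF1 binds heat shock elements, inverted repeats of GAA and TTC, and raises inducible chaperones such as Hspb1, Hsph1 and Dnajb1, whereas Hspa8 and the mitochondrial chaperones are made in abundance in unstressed cells. Liver mitochondria import the enzymes of fatty acid oxidation, which PPARα controls, through Hspa9 and fold them with Hspd1 and Hspe1.

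The liver identity of the arrays was checked first. The hepatocyte gene Alb reached log2 values of 14.84 to 15.02 in fenofibrate livers, 14.85 to 15.01 in fish oil livers and 14.82 to 15.01 in control livers, and of the bile duct markers only Sox9 passed the brightness filter, at no more than 4.61, 5.13 and 4.81 in these groups. All 6 tested genes of a list of PPARα targets were higher after fenofibrate, with a median log2 difference of 2.64 from controls, and 4 of the 6 were higher after fish oil, with a median of 1.22. Some control livers stood apart. Relative to the other 7 controls, the same targets were raised by 2.04 in control replicate 1 and by 1.70 in control replicate 9, against 2.48 to 2.90 in fenofibrate livers and 0.85 to 1.95 in fish oil livers. Control replicate 2 lay the other way for these targets, at -0.68, the lowest of all livers. Control replicates 1 and 2 had the highest Hspb1, Hsp90aa1 and Hsph1 of all controls, so results on these genes are given with and without them. As they were picked for these values, larger differences without them were fixed in advance. The p-values without them show how far calls depend on these 2 livers and are no support. Precision is set by how many mice each diet had, as arrays have no sequencing depth. Mice were housed in pairs and cage mates cannot be picked out from the labels, so the p-values take each mouse as independent. Arrays of 1 diet with consecutive label numbers were more alike than its other arrays (correlation 0.23 as a block), so these p-values can be too small.

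Fenofibrate raised all 3 mitochondrial chaperone genes, by 1.16- to 1.47-fold. Hspe1 and Hspd1, the lid and the barrel of the mitochondrial chaperonin, rose most and were also higher after fenofibrate than after fish oil. The mouse genes lie head to head on chromosome 1, and the stretch between their starts is shown because transcription of both begins at its ends. It is given as chr1:55087933-55088147 on the plus strand of GRCm38.p6 from the RefSeq promoter table, from just after the Hspd1 start at 55087932 to just before the Hspe1 start at 55088148. A further annotated start of Hspd1 lies at 55088243, 95 bases inside Hspe1, so the stretch also falls within the annotated span of Hspd1. Capitals mark heat shock element units.
Hspe1 and Hspd1: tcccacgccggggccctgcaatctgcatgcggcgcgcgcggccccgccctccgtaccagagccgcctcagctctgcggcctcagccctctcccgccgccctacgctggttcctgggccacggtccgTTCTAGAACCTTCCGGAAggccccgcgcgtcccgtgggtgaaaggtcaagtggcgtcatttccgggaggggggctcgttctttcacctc
The 3-unit heat shock element (GAA, TTC and GAA, or TTC, GAA and TTC, with any 2 bases between units) matched here at 2 overlapping positions, which begin 89 and 84 bases before the Hspe1 start. Only 0.466% of the 32851 promoter windows in the table held that element, both strands searched. No PPAR direct repeat (AGGTCA, any 1 base, AGGTCA) was found in these windows, and 0.0335% of all windows held it.

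Hspe1 (probe set 1450668_s_at) had log2 values from 12.41 to 12.83 in fenofibrate livers, with a median of 12.64, from 11.98 to 12.33 in fish oil livers, with a median of 12.15, and from 11.92 to 12.43 in control livers, with a median of 12.02. All 12 fenofibrate livers lay above every fish oil liver, and 11 of them above every control; the highest control was replicate 2. The log2 difference of fenofibrate from control was 0.56 ± 0.06 (SE), or 1.47-fold, with a limma adjusted p of 9.75e-10. Fish oil differed from control by 0.09 ± 0.06, with a 95% interval of -0.03 to 0.20 and a limma adjusted p of 0.353. Fenofibrate exceeded fish oil by 0.47 ± 0.05 (limma adjusted p = 1.91e-08). In whole liver, a change in the RNA per cell and a change in the number of cells that hold it cannot be told apart.

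Hspd1 (1426351_at) ranged over 12.99 to 13.31 in fenofibrate livers (median 13.20), 12.81 to 13.11 in fish oil livers (median 12.90) and 12.66 to 12.97 in control livers (median 12.77). Every fenofibrate liver was above every control, and 7 of 12 were above every fish oil liver. Its log2 difference from control was 0.38 ± 0.05 after fenofibrate (1.30-fold, limma adjusted p = 4.93e-08) and 0.14 ± 0.05 after fish oil (1.10-fold, limma adjusted p = 0.0375), and fenofibrate exceeded fish oil by 0.23 ± 0.04 (limma adjusted p = 8.59e-05). The fish oil call did not hold when pairs of consecutive array label numbers entered as a random block (0.14, limma adjusted p = 0.09). Nor did it hold with the replicate number as a block (limma adjusted p = 0.0528) or with no filter on dim probe sets (limma adjusted p = 0.0691). It was also lost without any 1 of fish oil replicates 2, 5 and 11 or control replicates 5 to 10, with limma adjusted p-values of 0.0546 to 0.0722.

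Hspa9 (1418504_at), the mitochondrial Hsp70 that pulls imported proteins into the matrix, ranged over 11.78 to 12.20 in fenofibrate livers (median 12.13), 11.77 to 12.07 in fish oil livers (median 12.02) and 11.78 to 11.97 in control livers (median 11.86). In each treated group 10 livers were above every control, while fenofibrate replicates 3 and 11, at 11.78 and 11.85, and fish oil replicate 9, at 11.77, lay in or just below the control range. The log2 difference was 0.22 ± 0.05 after fenofibrate (1.16-fold, limma adjusted p = 0.000293) and 0.14 ± 0.05 after fish oil (1.11-fold, limma adjusted p = 0.0339). Between the drug and the oil it was 0.07 ± 0.04, with a 95% interval of -0.02 to 0.16 (limma adjusted p = 0.215). With the pairs of consecutive label numbers as a random block the fish oil call was lost (0.14, limma adjusted p = 0.101), as it was without any 1 of fish oil replicates 1, 2, 3, 8 and 10 or control replicates 6, 9 and 10 (limma adjusted p = 0.0514 to 0.0585). Between the drug and the oil, then, Hspe1 and Hspd1 were called and the interval of Hspa9 included 0. With the mean of its probe sets in place of the brightest, Hspa9 was called there too (0.16, limma adjusted p = 0.00528). That mean takes in the dim probe set 1431274_a_at, at 0.36, and 1447728_x_at, which passed the filter only through treated livers. The bright probe sets 1418504_at and 1418503_at differed by 0.07 and 0.09 and were not called, so the call of the mean is not support. The mean setting lost the Hspa9 call of fish oil against control (0.12, limma adjusted p = 0.0798). That call was also lost with no filter on dim probe sets (limma adjusted p = 0.063) and without control replicates 1, 2 and 9 (limma adjusted p = 0.076).

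**Figure D1:**
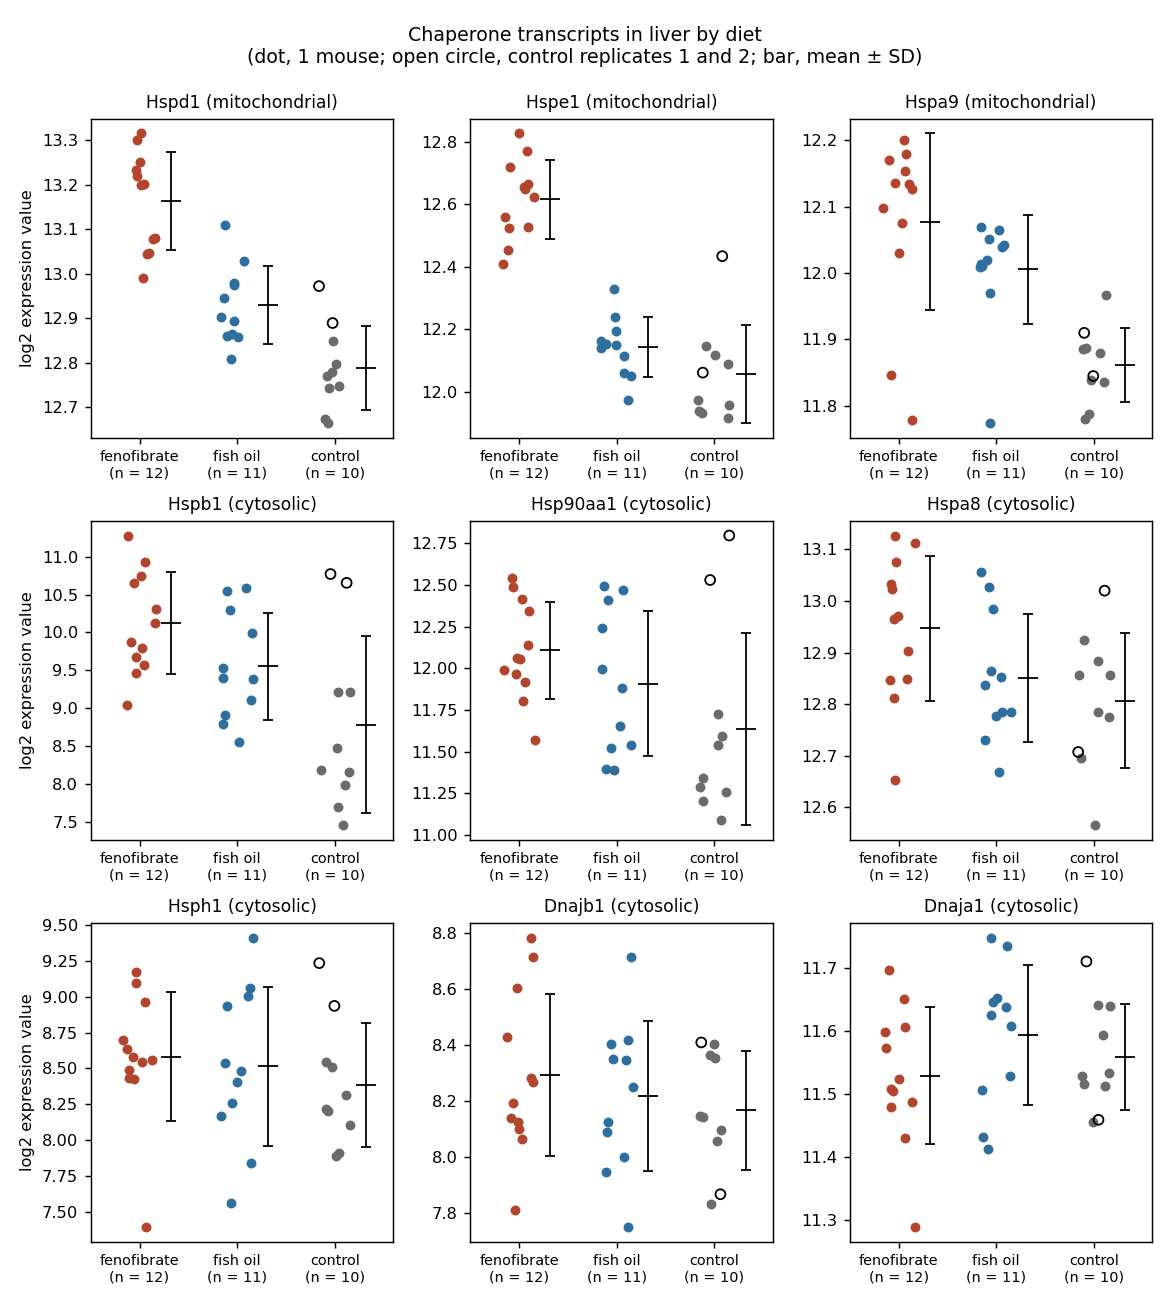
Log2 expression values of the 9 measured chaperone genes, 1 panel per gene with its own scale, for fenofibrate (n = 12), fish oil (n = 11) and control (n = 10) livers. Each dot is 1 mouse, open circles are control replicates 1 and 2, and bars are mean ± SD. Hspd1 does not overlap between fenofibrate and control livers, Hspe1 does not overlap between fenofibrate and fish oil livers, and the 2 open circles are the highest controls for Hspb1, Hsp90aa1 and Hsph1.

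Among the cytosolic chaperones, Hspb1 and Hsp90aa1 were higher after fenofibrate, and the other 4 genes were not called by their brightest probe sets. Hspb1 (1422943_a_at), a small heat shock protein that holds unfolded proteins without ATP, ranged over 9.05 to 11.28 in fenofibrate livers (median 10.00), 8.56 to 10.59 in fish oil livers (median 9.40) and 7.46 to 10.77 in control livers (median 8.33). All 12 fenofibrate livers and all 11 fish oil livers lay above the control median, but only 2 fenofibrate livers and no fish oil liver exceeded the highest control. Control replicates 1 and 2, at 10.65 and 10.77, were above the other controls, the highest of which was replicate 4 at 9.22. The log2 difference from control was 1.34 ± 0.35 after fenofibrate (2.53-fold, limma adjusted p = 0.00256), the largest of any member. After fish oil it was 0.77 ± 0.36 (1.71-fold, 95% interval 0.04 to 1.5) and was not called (limma adjusted p = 0.159). Without control replicates 1 and 2 the differences were 1.82 after fenofibrate (limma adjusted p = 8.47e-06) and 1.25 after fish oil (limma adjusted p = 0.00363). In fits without array weights, the fish oil call rested on whether these 2 livers were kept. They were picked as the highest controls, so the larger differences were fixed in advance, and no treated liver was left out with them. Leaving out replicate 1 alone gave 0.98 after fish oil (limma adjusted p = 0.0480) and leaving out replicate 2 alone 0.99 (limma adjusted p = 0.0461). With array weights in the fit and no liver left out, the fish oil difference was 1.14 and called (limma adjusted p = 0.00557).

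Hsp90aa1 (1438902_a_at), the inducible form of Hsp90, ranged over 11.57 to 12.54 in fenofibrate livers (median 12.06), 11.39 to 12.50 in fish oil livers (median 11.88) and 11.09 to 12.80 in control livers (median 11.44). Again control replicates 1 and 2 were high, at 12.53 and 12.80, and the next control, replicate 9, was at 11.72. The log2 difference from control was 0.47 ± 0.18 after fenofibrate (1.39-fold, limma adjusted p = 0.0369) and 0.27 ± 0.19 after fish oil (1.21-fold, limma adjusted p = 0.362, 95% interval -0.10 to 0.65). The fenofibrate call was lost when any of 11 single arrays was left out, fenofibrate replicates 3, 4, 6 and 12 and control replicates 3 to 8 and 10, with limma adjusted p-values of 0.0501 to 0.0761. It was also lost with consecutive label numbers as a random block (limma adjusted p = 0.0587) and with no filter on dim probe sets (limma adjusted p = 0.0564). Without control replicates 1 and 2 the differences were 0.73 after fenofibrate (limma adjusted p = 0.000192) and 0.53 after fish oil (limma adjusted p = 0.0148). Here too the larger differences were fixed by the choice of the highest controls. With array weights and no liver left out, the Hsp90aa1 difference after fish oil was 0.472 and called (limma adjusted p = 0.0246). Between the drug and the oil Hspb1 differed by 0.57 ± 0.34 (limma adjusted p = 0.196) and Hsp90aa1 by 0.20 ± 0.18 (limma adjusted p = 0.393), and neither was called.

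Other genes that set controls 1 and 2 beside the rest are given here. Relative to the other 7 controls, the median of 11 core circadian clock genes was lower by 1.08 in replicate 1 (median difference -1.08) and 0.56 in replicate 2 (-0.56), and the cold-inducible gene Cirbp, whose RNA rises when cells cool, stood at -1.41 in replicate 1 and -0.26 in replicate 2. Replicate 9 was also low, with a clock median of -0.40 and Cirbp at -0.78, and for Cirbp replicate 2 lay within the other controls, of which replicate 10 was at -0.55. The median of 18 acute phase genes stood at 0.40 in replicate 1 and 0.68 in replicate 2, against -0.05 to 0.13 in the other 8 controls. The ratio of 3′ to 5′ signal of the Actb control transcript, a sign of RNA quality, was 1.18 and 1.2 (log2) in these livers and 1.06 to 1.57 over all controls. The part of these differences in the Hspb1 and Hsp90aa1 values was not tested.

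Promoter stretches of Hspb1, Hsph1 and Dnaja1 are shown because these cytosolic members hold 2-unit heat shock elements (GAANNTTC or TTCNNGAA) in their windows; capitals mark them. They come from the RefSeq table for GRCm38.p6. The Hspb1 stretch, chr5:135887769-135887868 on the plus strand, begins 150 bases before the gene start. The Hsph1 stretch, chr5:149636337-149636456 on the minus strand, ends just before a start at 149636336 and lies within the annotated gene, which has other starts. The Dnaja1 stretch, chr4:40722308-40722407 on the plus strand, begins 160 bases before the first annotated start.
Hspb1: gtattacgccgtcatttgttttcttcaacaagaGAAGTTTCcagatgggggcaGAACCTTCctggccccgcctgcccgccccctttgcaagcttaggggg
Hsph1: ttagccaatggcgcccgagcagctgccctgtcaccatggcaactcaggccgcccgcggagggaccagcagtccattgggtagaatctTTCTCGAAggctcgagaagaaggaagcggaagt
Dnaja1: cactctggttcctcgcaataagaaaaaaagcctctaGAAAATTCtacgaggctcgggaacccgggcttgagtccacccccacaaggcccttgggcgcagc
The Hspb1 matches began 117 and 97 bases before the start, the Hsph1 match 33 bases before and the Dnaja1 match 124 bases before. A 2-unit match is common, as 12.8% of all windows held one; both Dnajb1 windows held none, which says only that these letters are not in those windows. CCAAT, found in 33.8% of all windows, was present in windows of Hsph1, Dnaja1 and Dnajb1. Windows of 6 members were in the table, and Hspa8, Hspa9, Hsp90aa1 and Hsp90ab1 are named only. A match of letters is a description and shows neither binding nor a cause of the expression values.

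Hspa8 (1455789_x_at), the constitutive Hsp70, ranged over 12.65 to 13.13 in fenofibrate livers (median 12.97), 12.67 to 13.06 in fish oil livers (median 12.84) and 12.56 to 13.02 in control livers (median 12.82). The groups overlapped, with 5 of 12 fenofibrate livers above the highest control and 10 above the control median. The log2 difference was 0.14 ± 0.06 after fenofibrate (limma adjusted p = 0.0522), which passed the threshold in 15 alternatives with limma adjusted p-values of 0.0157 to 0.0498, and 0.04 ± 0.06 after fish oil (limma adjusted p = 0.683). Hsph1 (1425993_a_at), an Hsp110 protein that exchanges the nucleotide of Hsp70, ranged over 7.39 to 9.17 in fenofibrate livers (median 8.57), 7.56 to 9.41 in fish oil livers (median 8.48) and 7.89 to 9.23 in control livers (median 8.26). Its lowest liver was fenofibrate replicate 11, and its highest controls were again replicates 1 and 2, at 9.23 and 8.94. The log2 difference was 0.20 ± 0.20 after fenofibrate (95% interval -0.21 to 0.60, limma adjusted p = 0.46) and 0.13 ± 0.20 after fish oil (95% interval -0.28 to 0.54, limma adjusted p = 0.737). Without control replicates 1 and 2 these were 0.37 after fenofibrate (limma adjusted p = 0.137) and 0.30 after fish oil (limma adjusted p = 0.334), again not called.

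The J-domain proteins Dnajb1 and Dnaja1, which deliver clients to Hsp70 and start its ATP hydrolysis, were not called in any comparison by their brightest probe sets. Dnajb1 (1416755_at) ranged over 7.81 to 8.78 in fenofibrate livers (median 8.23), 7.75 to 8.71 in fish oil livers (median 8.25) and 7.83 to 8.41 in control livers (median 8.15), and 4 fenofibrate livers lay above the highest control. Its log2 difference was 0.13 ± 0.11 after fenofibrate (95% interval -0.10 to 0.35) and 0.05 ± 0.11 after fish oil (95% interval -0.18 to 0.28). The other Dnajb1 probe set, 1416756_at, was called after fenofibrate, at 0.31 (95% interval 0.11 to 0.51, limma adjusted p = 0.0116 over all probe sets). Dnaja1 (1416288_at) ranged over 11.29 to 11.70 in fenofibrate livers (median 11.52), 11.41 to 11.75 in fish oil livers (median 11.62) and 11.45 to 11.71 in control livers (median 11.53). It was the only member whose mean was not highest after fenofibrate, with log2 differences of -0.03 ± 0.05 after fenofibrate (95% interval -0.13 to 0.07) and 0.04 ± 0.05 after fish oil (95% interval -0.06 to 0.13). For this Dnaja1 probe set these intervals hold changes of no more than 0.13 in either direction. Those of the brightest Hsph1 and Dnajb1 probe sets reach 0.60 and 0.35. The other Dnaja1 probe sets had wider intervals after fenofibrate, -0.29 to 0.05 (1459835_s_at) and -0.25 to 0.03 (1460179_at), so a larger fall is not excluded for the gene.

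Over the 9 measured members, fenofibrate against control gave 5 called higher and 0 called lower at a limma adjusted p under 0.05. Among all 9005 genes 22% were called higher and 40.8% were called in either direction. Fish oil against control gave 2 called higher and 0 lower, against 7.53% of all genes called higher and 14.5% in either direction. Fenofibrate against fish oil gave 2 higher and 0 lower, against 19.8% of all genes called higher, 19.1% lower and 38.9% in either direction. The 3 mitochondrial members had 3, 2 and 2 called in these comparisons and the 6 cytosolic members 2, 0 and 0 by limma. At an unadjusted p under 0.05, 3, 1 and 0 of the cytosolic members were higher and none was lower. Groups did not overlap for 1 member (Hspd1) between fenofibrate and control, where 5.41% of all genes did not overlap, for 1 member (Hspe1) between fenofibrate and fish oil, where 6.34% did not, and for no member between fish oil and control, where 1.05% did not. The group means ran in the order fenofibrate, fish oil, control for 8 of the 9 members; the treated groups share their controls, so the order of each against control is not independent of the other.

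**Figure D2:**
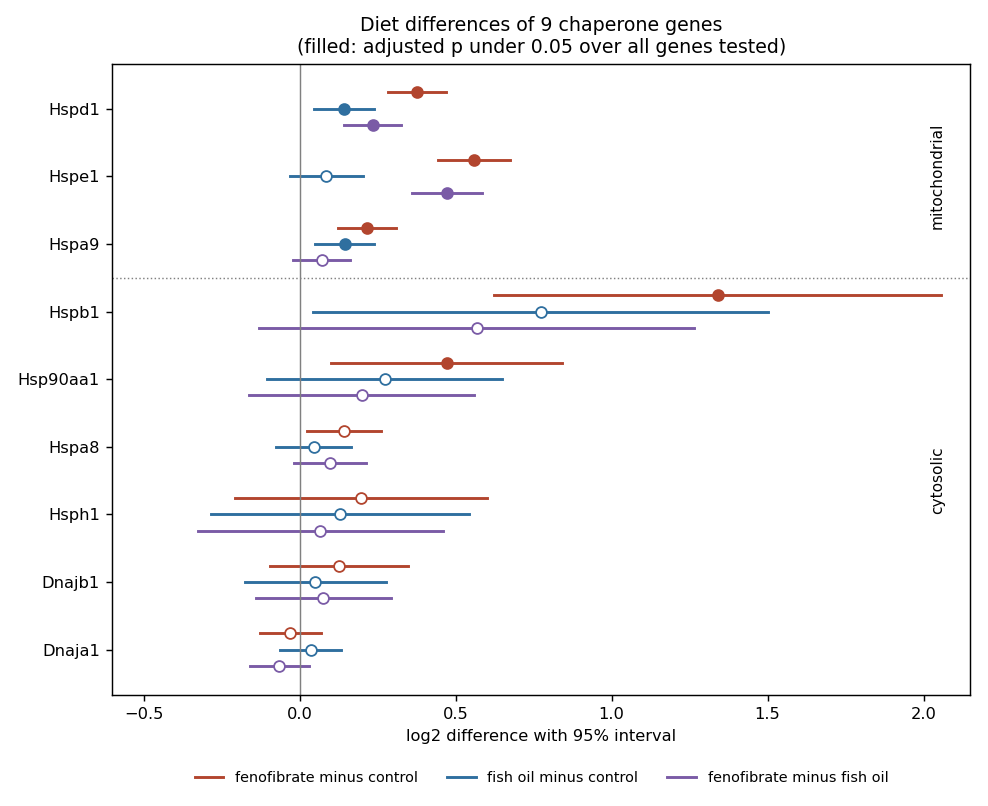
Log2 differences between diets for the 9 chaperone genes, with 95% intervals from the limma fit; each gene has fenofibrate minus control, fish oil minus control and fenofibrate minus fish oil from top to bottom. Filled points passed an adjusted p of 0.05 over all genes. The mitochondrial genes have narrow intervals above 0 after fenofibrate, and Hspb1 has the largest difference, 1.34, with the widest interval, 0.62 to 2.06.

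Averaged over members, the mitochondrial class varied less from liver to liver than the cytosolic class, whose most variable members were Hspb1, Hsph1 and Hsp90aa1; the cytosolic Dnaja1 and Hspa8 varied as little as the mitochondrial genes. Averaged per liver over the 3 mitochondrial members, the log2 difference from the control mean was 0.24 to 0.51 in fenofibrate livers (mean 0.38, SD 0.09, n = 12), 0.03 to 0.25 in fish oil livers (median 0.12, n = 11) and -0.10 to 0.18 in control livers (median -0.03, n = 10). Over the 6 cytosolic members it was -0.24 to 0.82 in fenofibrate livers (mean 0.37, SD 0.28), -0.27 to 0.77 in fish oil livers (median 0.17) and -0.46 to 0.70 in control livers (median -0.11). Fenofibrate livers lay above all controls for the mitochondrial mean, of which the lowest was 0.24 against a highest control of 0.18, and overlapped the controls for the cytosolic mean. Control replicates 1 and 2 had cytosolic means of 0.70 and 0.53 but mitochondrial means of 0.05 and 0.18. No test was made of these averages, since the members were chosen with results known.

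**Figure D3:**
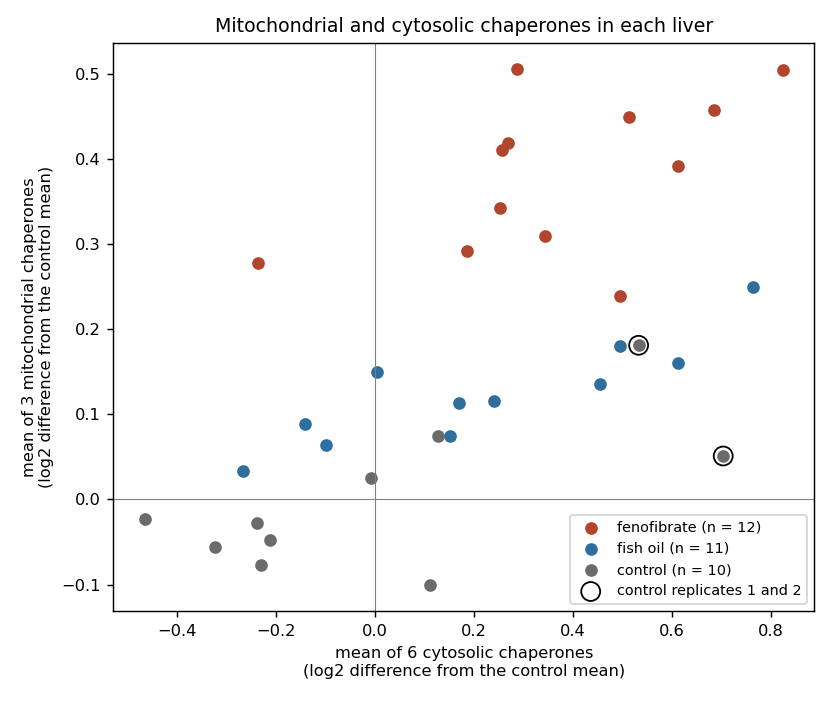
Mean log2 difference from the control mean over 6 cytosolic members (horizontal axis) and 3 mitochondrial members (vertical axis), 1 point per liver; rings mark control replicates 1 and 2. All fenofibrate points lie at 0.24 or more on the vertical axis and all controls at 0.18 or less, while the groups overlap on the horizontal axis.

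The other probe sets of the members mostly ran with those described. Of 23 tested probe sets, 14 were called higher after fenofibrate and none lower, against 36.6% of the 17162 probe sets past the filter called in either direction. Fish oil gave 2 higher, against 11.6% of all, and the drug against the oil 4 higher, against 34.5% of all. All 3 tested probe sets of Hsp90aa1 were called after fenofibrate, with log2 differences of 0.47 to 0.74, although 1426645_at and 1438902_a_at were not called with the label block (limma adjusted p = 0.0522 and 0.0641), and both of Hspb1, with 1.34 and 1.40. Both Hspe1 probe sets rose, by 0.56 and 0.61, and all 4 tested of Hspa9, by 0.20 to 0.46. Of these, 1447728_x_at reached a log2 value of 4 in only 10 arrays, the minimum. None of them was a control, where its highest value was 3.93. It passed the filter only through treated livers, so its call, 1 of the 14, is not support. Without control replicates 1, 2 and 9 that call was lost (limma adjusted p = 0.0989). Probe sets of 1 gene disagreed for Dnajb1, where 1416756_at was called at 0.31 (limma adjusted p = 0.0116) and 1416755_at was not (0.13), and for Hspa8, where 1420623_x_at was called at 0.14 (limma adjusted p = 0.0439) and the other 3 were not. Another probe set of Hspa9, 1431274_a_at, was higher after fenofibrate than after fish oil by 0.36 (limma adjusted p = 0.0204), which the other 3 were not. Probe sets ending in _x_at or _s_at can bind transcripts of related genes, which touches Hspa8 and Hspe1 above, and 3 probe sets, 2 of Hsp90aa1 and 1 of Hspa9, were too dim to test.

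The members differed in how much they varied among mice of 1 diet. The within-diet SD was 0.86 for Hspb1, 0.48 for Hsph1 and 0.44 for Hsp90aa1, above that of 99.2%, 95.6% and 94.2% of all genes. At the other end it was 0.10 for Hspd1, Hspa9 and Dnaja1 and 0.13 for Hspe1 and Hspa8, where the median gene had 0.20. The SD of 0.26 for Dnajb1 lay in between. The 3 most variable members, all known to be induced by stress, were cytosolic, and the 3 mitochondrial members were each below the median gene.

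Within diets the cytosolic members also varied together. The correlation was taken over the 33 livers after subtracting diet means, with a permutation within diets and p-values adjusted over the 36 pairs. Of 15 cytosolic pairs, 13 passed an adjusted permutation p of 0.05 (median r 0.61); of 18 pairs with 1 member of each class, 10 did (median r 0.41); of the 3 mitochondrial pairs, 1 did. How many pairs of other genes would pass was not counted, so these counts do not show a trait particular to chaperones. Hspb1 and Hsp90aa1 had the highest r, 0.94 (Spearman's rho 0.89; adjusted permutation p = 9e-05 for both, the smallest that the permutations can give here), with 0.91 in fenofibrate, 0.94 in fish oil and 0.96 in control livers. It was 0.91 without the 2 livers farthest from the median and 0.89 without control replicates 1, 2 and 9. Hspa8, an Hsp70, and its J-domain partner Dnaja1 had r = 0.77 (rho 0.83, adjusted permutation p = 9e-05). The chaperonin partners Hspd1 and Hspe1 had r = 0.62 (rho 0.53, adjusted permutation p = 0.00099 for r and 0.0072 for rho), which was 0.49 without the 2 farthest livers and 0.54 without the 3 controls. Hspa9 and Hspe1 did not pass (r = -0.04, rho -0.05, adjusted permutation p = 0.827). Without the 3 controls 14 cytosolic, 7 mixed and 1 mitochondrial pair passed. Both values of a pair come from 1 array per liver, and what the arrays share was not tested.

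**Figure D4:**
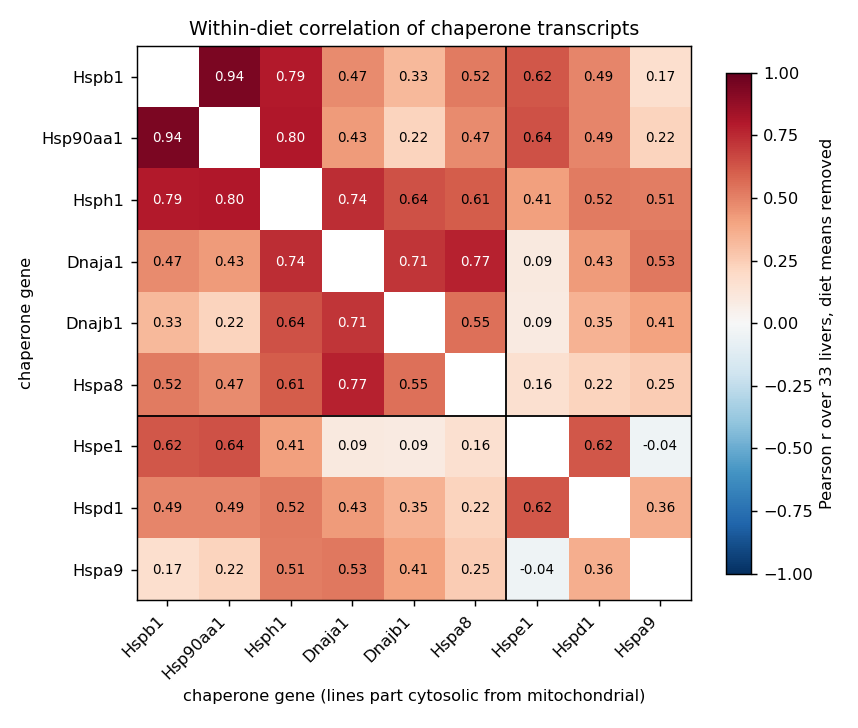
Pearson r between chaperone genes over 33 livers after subtracting diet means; red is positive, blue negative, and lines part the 6 cytosolic from the 3 mitochondrial genes. Hspb1 with Hsp90aa1 has the highest r, 0.94, and Hspa9 with Hspe1 the lowest, -0.04.

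The genes that ran most like Hsph1 within diets were not all chaperones. Among the 9004 other genes they were Clp1, an RNA kinase (r = 0.86), Hexim1, an inhibitor of the elongation factor P-TEFb (0.86), Spin1, a histone reader (0.84), Phf5a, a splicing factor subunit (0.84), and Stip1, which bridges Hsp70 and Hsp90 (0.84), over 33 livers. For Hspd1 they were Ahsa1, an activator of the Hsp90 ATPase (0.74), Josd2, a deubiquitinase (0.74), Trmt1l (0.73), Mettl16, an RNA methyltransferase (0.70), and Wipi2, an autophagy protein (0.69). Without control replicates 1, 2 and 9 these were 0.81 to 0.84 for Hsph1 and 0.62 to 0.74 for Hspd1. Over all 33 livers the highest r of Hsph1 with a member was 0.80 (Hsp90aa1), below those of the genes named for it. Likeness within diets did not mean a like diet difference: Hexim1 and Phf5a were lower after fenofibrate than in controls, by -0.29 (limma adjusted p = 0.0358) and -0.27 (limma adjusted p = 0.00588) on the log2 scale, while Hsph1 was not called.

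Other chaperone groups place the members. Of 24 tested genes for mitochondrial co-chaperones, the import motor and proteases, 17 were higher after fenofibrate, 0 lower and 7 not called, against 22% of all genes called higher, with a median log2 difference of 0.24, where all genes had a median of -0.00162. Grpel2 and Grpel1 are the nucleotide exchange factors of Hspa9. Grpel2 had a median of 10.07 in fenofibrate livers (9.94 to 10.46), 9.47 in fish oil livers (9.15 to 10.04) and 9.16 in control livers (8.97 to 10.15), and rose by 0.82 ± 0.11 after fenofibrate (limma adjusted p = 2.37e-07). Grpel1 rose by 0.24 ± 0.03 (limma adjusted p = 2.08e-07). Pmpcb, a subunit of the peptidase that trims import signals, rose by 0.31 ± 0.04 (limma adjusted p = 6.84e-08), and the membrane protease subunit Afg3l1 by 0.58 ± 0.08 (limma adjusted p = 6.2e-07). Dnaja3 and Hscb, 2 J-domain partners of mitochondrial Hsp70, were not called (0.05 and 0.25).

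Fish oil against control gave 9 of these 24 higher and 0 lower, against 7.53% of all genes called higher, with a median of 0.14. Among them were Pmpcb (0.22 ± 0.04, limma adjusted p = 0.000134), the disaggregase Clpb (0.47 ± 0.10, limma adjusted p = 0.00134), the matrix protease Lonp1 (0.24 ± 0.06, limma adjusted p = 0.00359) and the mitochondrial Hsp90 Trap1 (0.20 ± 0.05, limma adjusted p = 0.00426). Clpb differed by 0.02 ± 0.10 between drug and oil and Lonp1 by -0.09 ± 0.06, neither called, whereas Dnajc15, a J-domain protein of the import motor, was higher after the drug than after the oil by 0.37 ± 0.06 (limma adjusted p = 4.56e-06). Fenofibrate against fish oil gave 8 higher and 0 lower of the 24, against 19.8% of all genes called higher and 19.1% lower. The list counts against control stayed at 14 to 15 for fenofibrate and 8 to 11 for fish oil with the replicate number or consecutive label numbers as a block or without control replicates 1, 2 and 9.

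Across the lists of cytosolic partners there were calls in both directions after fenofibrate, and their counts are to be read against the 40.8% of all genes called there and the 14.5% called after fish oil. Of 4 tested genes listed as small heat shock proteins besides Hspb1, 2 were higher after fenofibrate and 0 lower. They were Hspb6 (1.05 ± 0.12, limma adjusted p = 1.05e-08), a relative abundant in muscle, and Hspb11 (0.41 ± 0.07, limma adjusted p = 4.4e-05). Hspb11 stands in the list by its symbol, and its count is no result about chaperones of this family. Hspb6 ranged over 8.37 to 8.81 in fenofibrate livers, 7.37 to 8.32 in fish oil livers and 6.52 to 8.04 in control livers, so its fenofibrate livers lay above all others. Cryab, also of this family, was lower after fish oil (-0.30 ± 0.10, limma adjusted p = 0.0483), a call that most alternatives did not keep. Of 13 other Hsp70, Hsp110 and exchange factor genes, 4 were higher and 2 lower after fenofibrate; Hspa4l, a relative of Hsph1, had 1.16 ± 0.23 (limma adjusted p = 0.000106), Bag4 0.57 ± 0.09 (limma adjusted p = 6.37e-06) and Bag6 -0.25 ± 0.06 (limma adjusted p = 0.000868). The stress-inducible Hsp70 gene Hspa1b was not called after fenofibrate (0.38, limma adjusted p = 0.129) or fish oil (-0.05, limma adjusted p = 0.904). After fish oil 2 of the 13 were higher, Bag4 (0.41 ± 0.09, limma adjusted p = 0.00248) and the ubiquitin ligase Stub1 (0.13 ± 0.05, limma adjusted p = 0.0464), whose call was lost in 28 of 44 alternatives.

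Of 20 other J-domain genes, 5 were higher and 5 lower after fenofibrate, among them Dnajb2 (0.53 ± 0.08, limma adjusted p = 2.02e-06) and Dnaja4 (-0.68 ± 0.16, limma adjusted p = 0.000646), and 1, Dnajc13 (0.26 ± 0.05, limma adjusted p = 0.000713), was higher after fish oil. Of 15 Hsp90 co-chaperones, 3 were higher and 1 lower after fenofibrate; Cacybp had 0.38 ± 0.10 (limma adjusted p = 0.00232), Chordc1 0.32 ± 0.09 (limma adjusted p = 0.00544) and Cdc37l1 -0.19 ± 0.07 (limma adjusted p = 0.0208). Chordc1 was also higher after fenofibrate than after fish oil (0.55 ± 0.09, limma adjusted p = 9.88e-06). Of the 14 genes of TRiC, the cytosolic chaperonin, and of its partner prefoldin, 5 were higher and 2 lower after fenofibrate and 0 were called after fish oil by limma, where 1 was higher and 1 lower at an unadjusted p under 0.05. The TRiC subunit Cct3 rose by 0.31 ± 0.08 (limma adjusted p = 0.002), and the prefoldin subunits moved apart, with Pfdn4 at 0.36 ± 0.11 (limma adjusted p = 0.0101) and Pfdn6 at -0.30 ± 0.06 (limma adjusted p = 0.000172). Of the heat shock factor list, Hsf1 was not analysed here and Hsf2 and Hsf4 were too dim to test. Hsbp1, which binds HSF1 and limits it, rose by 0.20 ± 0.04 after fenofibrate (limma adjusted p = 0.000122).

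Chaperones of the endoplasmic reticulum went the other way. After fenofibrate 11 of 15 were lower and 0 higher, with a median of -0.29, against 18.9% of all genes called lower. Calr, a lectin chaperone, ranged over 12.39 to 12.83 in fenofibrate livers, 12.56 to 13.38 in fish oil livers and 12.85 to 13.21 in control livers, and fell by 0.43 ± 0.08 (limma adjusted p = 2.98e-05). The disulfide isomerases Pdia6 (-0.61 ± 0.13, limma adjusted p = 0.000223) and Pdia3 (-0.43 ± 0.09, limma adjusted p = 0.000353) fell, as did the reticulum's Hsp70, Hspa5 (-0.35 ± 0.13, limma adjusted p = 0.0255). Fish oil left 14 of the 15 uncalled and 1, Dnajb9, lower (-0.35 ± 0.11, limma adjusted p = 0.0247), where 7% of all genes were called lower. Against fish oil, fenofibrate had 10 lower and 1 higher, where 19.1% of all genes were called lower and 19.8% higher. Sdf2l1 differed there by -1.54 ± 0.28 (limma adjusted p = 4.76e-05).

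**Figure D5:**
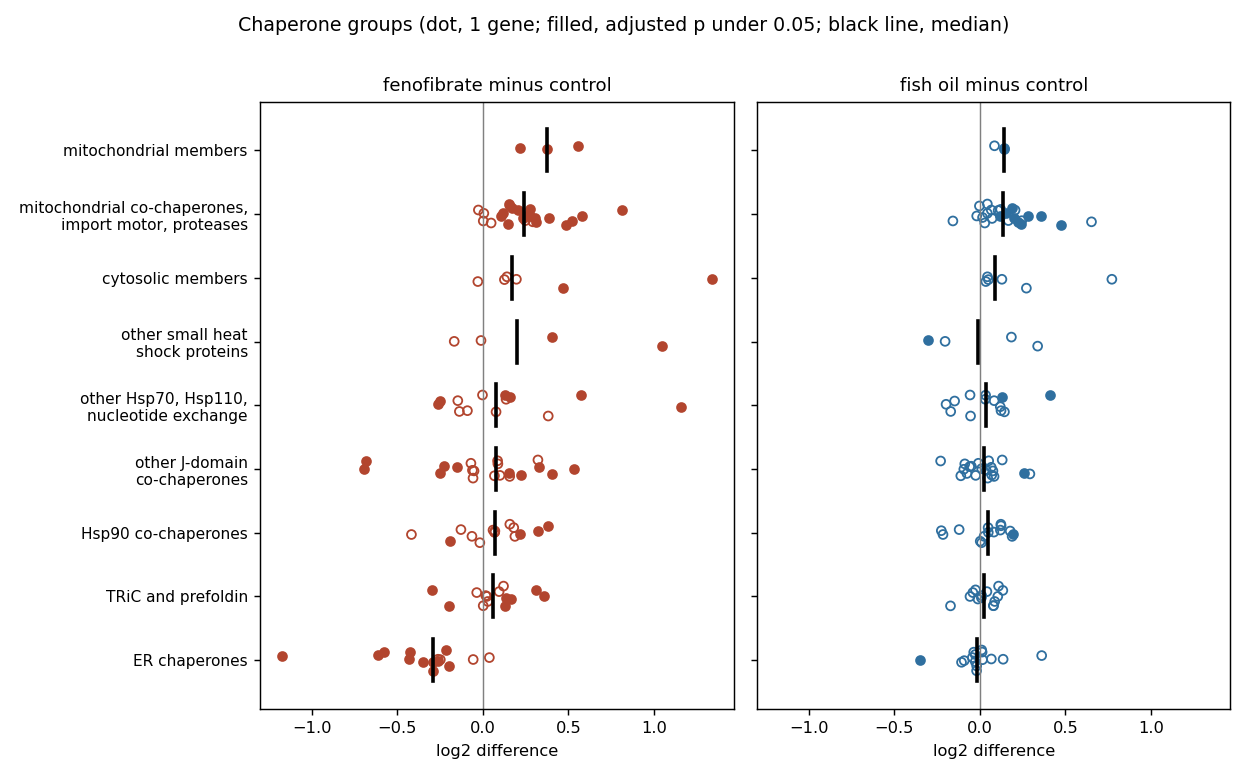
Log2 differences from control of the tested genes in each chaperone group, after fenofibrate (left) and fish oil (right); dots are genes, filled where the adjusted p was under 0.05, and black lines are medians. After fenofibrate the mitochondrial groups have medians of 0.38 and 0.24 and the endoplasmic reticulum group -0.29, while the other groups have calls on both sides or medians of 0.20 or less.

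Some markers of liver cell types were called after fenofibrate too, where 18.9% of all genes were called lower and 22% higher. After fish oil 7% of all genes were called lower. Of 7 tested hepatocyte markers 5 were lower after fenofibrate and 3 after fish oil, and of 8 Kupffer cell markers 2 and 0. Of 8 sinusoidal endothelial markers 3 and 2 were lower, and of 6 stellate cell markers 4 and 0, each list with 1 higher after fenofibrate. The Kupffer cell count after fenofibrate is near the share of all genes. Single markers of other cells also moved after fenofibrate: Fabp4 of adipocytes by 1.28 and Ighm of lymphocytes by 0.67, and, downward, Car3 of adipocytes by -0.56, Alas2 of blood cells by -1.04 and Cela1 of pancreatic acinar cells by -1.13, all called by limma, and none of these 5 after fish oil. The summed hepatocyte level was 16.90 to 17.05 in fenofibrate livers, 16.99 to 17.11 in fish oil livers and 17.04 to 17.19 in control livers (log2), and that of stellate cells 12.36 to 12.61, 12.55 to 12.81 and 12.59 to 12.80. The 11 clock genes had median differences from the 7 other controls of -0.92 to -0.23 in fenofibrate livers, -0.79 to 0.08 in fish oil livers and -1.08 to 0.13 in all controls, and 11 of 18 acute phase genes were lower after fenofibrate. Their part in the chaperone differences was not tested.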

How the data were processed

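Whole liver RNA of 33 mice was measured on Affymetrix whole-genome mouse arrays, 1 array per mouse. The deposited values are log2 expression per probe set, and the submitters' processing notes name GCRMA 2.24.1, a method that corrects background by probe sequence, normalizes arrays by quantiles and summarises probes, which narrows differences of dim probe sets. They carry no depth. Array medians were 2.90 to 2.97, and no 2 arrays held identical values.

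Of 45101 probe sets, 64 array controls were left out, 34945 had 1 gene, 932 several and 9160 were not named here. Symbols were updated by gene ID for 34741. Probe sets of log2 4 or more in at least 10 arrays were kept (17162), and the brightest stood for each of 9005 genes. Diets were compared in 1 fit over all 33 arrays with limma 3.58.1 (R 4.3.3, statmod 1.5.0), and p-values were adjusted by Benjamini-Hochberg over all genes, with a threshold of 0.05. Correlations used 100000 permutations within diets. Dixon's test was run on control groups of members.

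The members and lists were chosen with earlier results of these data known. Named genes were all members, up to 4 genes per list and comparison with the smallest p among those called, and the 5 genes most like each of Hsph1 and Hspd1; other genes named were chosen after their values were seen. The replicate numbers do not pair the mice: arrays of 1 number in different diets had a median correlation of 0.0524. Arrays of 1 diet with consecutive label numbers had a median of 0.141, against -0.133 for other pairs of 1 diet. As a random block these pairs had a correlation of 0.23, so p-values that take each mouse as independent can be too small. Tested on simulated data with 9005 genes, fenofibrate against control recovered 52% of 50 genes changed by 0.3 on the log2 scale and 82% of 50 changed by 0.5. The simulated arrays were independent and had far fewer changed genes than the 3676 called in the real comparison. These shares therefore do not give the recovery of the real fit. Alternatives were the filter, mean of probe sets, centring, variance model, array weights, blocks, groups fitted and leaving out arrays; leaving out control replicates 1 and 2 alone as a pair was added after seeing the data.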

Additional observations from a re-analysis of the deposited data

Results flagged for a closer look

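Control replicate 2 lay apart from the other 9 controls by Dixon's test in 3 of 25 groups of control values tested. Chance alone flags about 1 in 20 groups that are independent. These groups are not, as they come from the same livers and some are probe sets of 1 gene. Both Hspe1 probe sets were high in it, at log2 12.43 (1450668_s_at) and 10.06 (1422579_at), and Hspa8 1420623_x_at was low, at 11.96. On 1450668_s_at it was the only control liver that reached the range of the fenofibrate livers.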

How the results depend on the processing

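The calls of fish oil against control depended most on the settings. Members called there numbered 2, but 0 with no filter, 1 with the mean of probe sets, 4 with array weights, 1 with the replicate block, 0 with consecutive label numbers as a random block, 3 without control replicates 1, 2 and 9, 4 without control replicates 1 and 2, and 0 to 3 leaving out 1 array; the causes were not tested. Consecutive label numbers as a block gave 845 genes, against 1308, and 1297 probe sets, against 1986. Over all other alternatives, fenofibrate against control called 4 to 6 members and fenofibrate against fish oil 2 to 3. Leaving out 1 array gave 3495 to 3794 genes for fenofibrate against control, 1099 to 1554 for fish oil against control and 3319 to 3620 for fenofibrate against fish oil. The sign turned for Dnaja1 after fish oil with the mean of probe sets (-0.00583, against 0.0354), for its probe set 1460179_at without control replicates 1, 2 and 9 (0.0255, against -0.0454), for Fcgr2b between fenofibrate and fish oil with the mean of probe sets (0.0926, against -0.209), and for Hsph1 between fenofibrate and fish oil (-0.0283 without fish oil replicate 9 and -0.000841 without fish oil replicate 7, up to 0.175 leaving out others). Replicate numbers did not pair the mice: 3 of 32 arrays correlated best with an array of their own number. Cage, time of collection and array processing were not analysed here, and dim probe sets have only compressed differences.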

Other observations

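The array label numbers run across diets, and the cytosolic chaperones of labels 1 to 5, none of them from fenofibrate mice, were above the control mean. Averaged over the 6 cytosolic members, the log2 difference from the control mean was 0.454, 0.496 and 0.612 in fish oil replicates 1, 2 and 3 (labels 1, 2 and 5), and 0.704 and 0.533 in control replicates 1 and 2 (labels 3 and 4). The same 5 livers had clock gene medians of -0.49, -0.432 and -0.792 in fish oil and -1.08 and -0.56 in control, relative to the 7 other controls. Later labels held values as high, 0.824 and 0.686 in fenofibrate replicates 4 and 6 (labels 10 and 12) and 0.765 in fish oil replicate 5 (label 17), and label 6, fish oil replicate 4, was at 0.152. These arrays were picked after their values were seen, what the numbers stand for is not given in the sources used here, and the relation was not tested.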
